A study of Mus musculus with 39 samples.

Results

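Among 39 lymphomas of Eµ-myc mice, 33 had the B cell coactivator gene Pou2af1 at 8 or more on the log2 scale, and these were ranked by their level of Cdkn2a. The 10 tumours with the highest Cdkn2a (Cdkn2a-high B lymphomas) were compared with the 10 with the lowest (Cdkn2a-low B lymphomas), 20 of the 39 tumours in all. A further 13 B lymphomas lay between them, and 6 tumours had Pou2af1 under 8. The groups were thus chosen by the Pou2af1 and Cdkn2a levels on the same arrays, and the labels themselves give a single group with no control, treatment, age or sex.

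All tumours carried the Eµ-myc transgene, in which the immunoglobulin heavy chain enhancer drives Myc in B lineage cells, so no tumour here is free of it. RNA from frozen lymphoma tissue was hybridised as biotin-labelled cRNA to 1 array per tumour. Whether any tumours share a mouse is not stated, and the p-values below reflect the spread among the sampled tumours, which could be partly technical.

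Cdkn2a encodes 2 tumour suppressors from separate first exons. Arf binds Mdm2, the ubiquitin ligase that degrades p53, and so stabilises p53, whereas p16Ink4a inhibits Cdk4 and Cdk6 and keeps Rb active. In Eµ-myc lymphoma Myc induces Arf, and loss of either Arf or p53 is a well known step in the disease. In normal cells the locus is silenced by polycomb proteins, and Arf transcripts are also known to accumulate in cells that have lost p53 function.

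The rule rests on the level of 1 gene with 2 starts of transcription, and the regions around both starts are shown because the single probe set that measured Cdkn2a gives 1 value for the locus. The 2 sequences run from 250 bases before to 50 bases after a start, on the minus strand of chromosome 4, and come from RefSeq with the assembly GRCm38.p6. Capitals mark matches, on either strand, to a GC box (GGGCGG), an E2F motif (TTTCCCGC, TTTGGCGC, TTTCGCGC or TTTGCCGC) or a Myc E-box (CACGTG). The first, upstream sequence belongs to the Arf start at chr4:89294570-89294869, and the other to the p16Ink4a start at chr4:89282143-89282442.
Cdkn2a, Arf start: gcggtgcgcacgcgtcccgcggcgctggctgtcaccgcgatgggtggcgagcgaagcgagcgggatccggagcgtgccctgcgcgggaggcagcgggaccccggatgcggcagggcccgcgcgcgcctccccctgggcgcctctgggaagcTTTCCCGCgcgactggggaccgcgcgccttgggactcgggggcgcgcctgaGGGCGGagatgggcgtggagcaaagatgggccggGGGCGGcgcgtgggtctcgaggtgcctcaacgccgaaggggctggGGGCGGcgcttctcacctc
Cdkn2a, p16Ink4a start: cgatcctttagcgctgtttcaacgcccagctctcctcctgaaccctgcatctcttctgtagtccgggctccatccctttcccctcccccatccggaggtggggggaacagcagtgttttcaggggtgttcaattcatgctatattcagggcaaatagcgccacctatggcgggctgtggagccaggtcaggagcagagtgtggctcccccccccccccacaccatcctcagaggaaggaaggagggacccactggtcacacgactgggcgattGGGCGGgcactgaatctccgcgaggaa

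The Arf start held 3 GC boxes and 1 E2F match, and the p16Ink4a start held 1 GC box and 0 E2F matches. Neither window held the E-box letters. Of 32851 mouse promoter windows of the same length, 35.7% held a GC box, 2.26% an E2F match and 7.15% the E-box. The Arf window was 77.0% G and C and the p16Ink4a window 60.3%, against a median of 52.7% over all windows. These matches describe the letters and were not tied to any level measured here.

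Cdkn2a fell into a high plateau and a long lower slope. The Cdkn2a-high tumours had log2 levels of 12.17 (tumour 9), 12.12 (14), 11.97 (12), 11.97 (17), 11.95 (10), 11.90 (3), 11.90 (24), 11.80 (15), 11.65 (25) and 10.76 (32). The Cdkn2a-low tumours had 7.08 (tumour 29), 7.06 (22), 6.64 (1), 6.63 (28), 6.19 (39), 6.19 (34), 5.06 (11), 4.63 (35), 4.48 (13) and 4.41 (36). Of the upper group, 9 values lay within a narrow band, while the lower group was spread over a wider range. Tumour 32, at 10.76, was the last tumour inside the upper group, and tumour 27, at 9.69, was the first outside it. At the lower edge there was no step, since tumour 29 (7.08) was inside the Cdkn2a-low group and tumour 37 (7.10) outside. These levels chose the groups and were not tested.

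**Figure D1:**
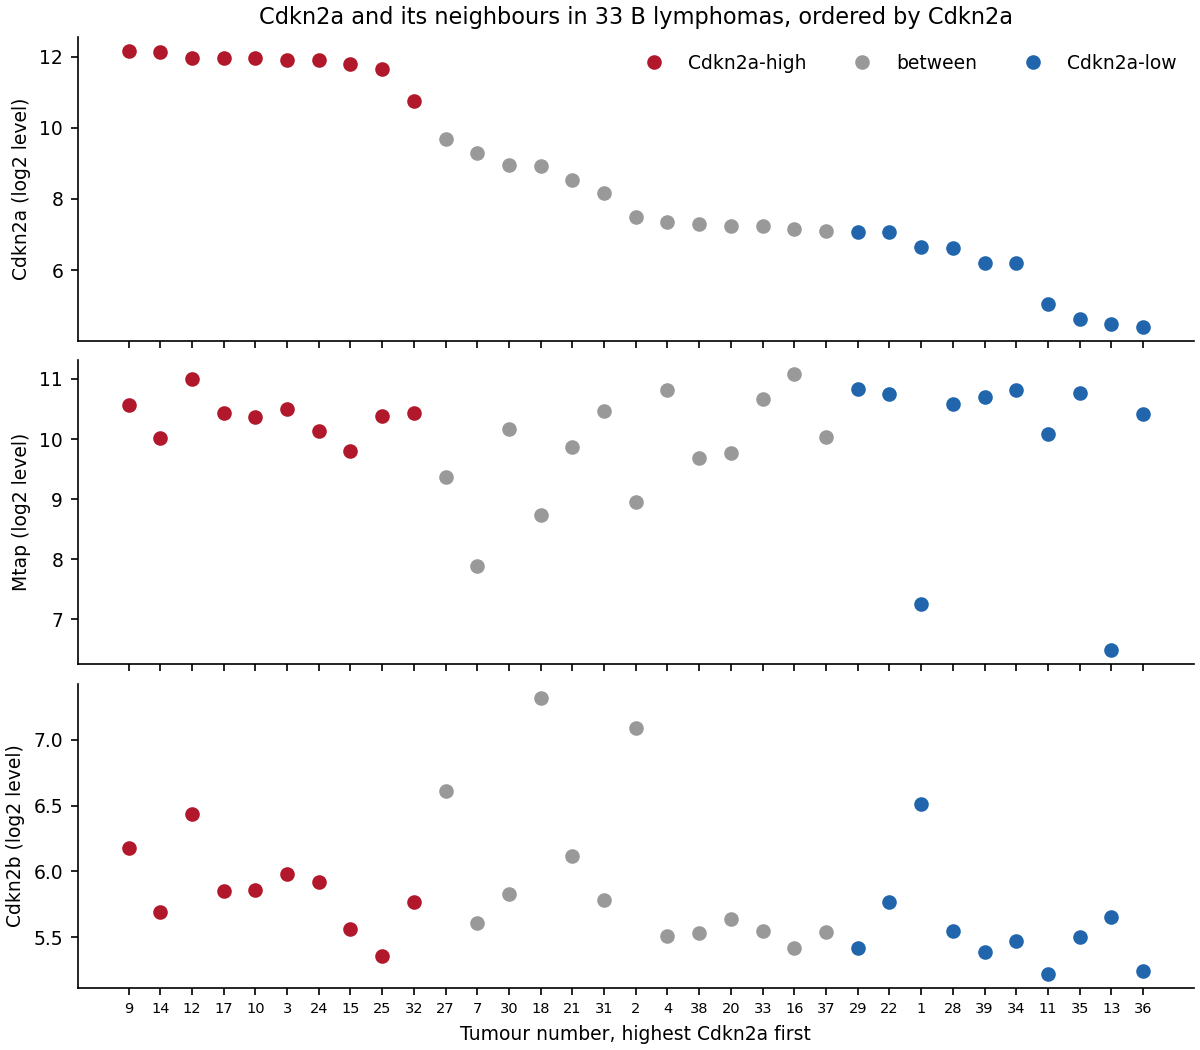
Log2 levels of Cdkn2a (top), Mtap (middle) and Cdkn2b (bottom), 1 point per tumour, in the 33 B lymphomas ordered from the highest to the lowest Cdkn2a. The Cdkn2a-high tumours form a plateau of Cdkn2a with 1 tumour (32, 10.76) below it, and Mtap is low in 2 Cdkn2a-low tumours (1, 7.25, and 13, 6.48) and in tumour 7 between the groups (7.89).

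As a check of the label, Pou2af1 ran from 10.59 to 12.96 with a median of 12.69 in Cdkn2a-high tumours, and from 11.99 to 12.98 with a median of 12.80 in Cdkn2a-low tumours. Cd79a, part of the B cell receptor, ran from 7.37 to 9.96 (median 9.49) in Cdkn2a-high tumours and from 8.76 to 10.04 (median 9.44) in Cdkn2a-low tumours. Tumour 32 stood apart from the other Cdkn2a-high tumours: it had the lowest Pou2af1 (10.59), Cd79a (7.37) and Pax5 (5.69) of the 20 and the highest Siglech (12.54), a marker of plasmacytoid dendritic cells, whose median was 5.77 in Cdkn2a-high and 6.04 in Cdkn2a-low tumours. Tumour 22, in the Cdkn2a-low group, had the next highest Siglech (9.75). Myc ran from 11.48 to 12.63 in Cdkn2a-high and from 11.10 to 12.33 in Cdkn2a-low tumours (limma adjusted p = 0.83). The correlation between any pair of arrays, over genes, lay between 0.936 and 0.989. Xist, which is transcribed from an inactive X chromosome, was high in 7 of 10 Cdkn2a-high and 4 of 10 Cdkn2a-low tumours, so the groups were uneven in it.

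The question was which other genes differ between B lymphomas with much and with little Cdkn2a RNA, and where in the genome they lie. Over 18192 genes, 354 differed at a limma adjusted p under 0.05 (1.95%), of which 202 were higher (1.11%) and 152 lower (0.836%) in Cdkn2a-high tumours. Most differences were modest: the median size among the 354 was 0.559 on the log2 scale, and 40 reached 1, a doubling. Of the 354, 165 (46.6%) lay on chromosomes 3, 5 and 13, which hold 15.0% of the genes tested. The other 189 (97 higher and 92 lower) were 1.22% of the genes elsewhere. At an unadjusted p under 0.05 there were 2858 genes, 15.7% of those tested, and the unadjusted counts of the gene lists below are to be read against that share. In bulk tissue, fewer cells of a type and less RNA per cell cannot be told apart, and this holds for every gene below.

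The count depended on single tumours. It was 100 without tumour 24, 197 without tumour 35, 203 without 17, 207 without 34, 211 without 39 and 215 without 10, and it was 666 without tumour 1 and 735 without tumour 32. All 35 genes that passed and were named by size, chromosome or list also passed without tumour 1 and without tumour 32. Without tumours 1, 22 and 32 together, a setting chosen after seeing the data, 1160 genes passed, and 343 of the 354 were among them with the same sign. Among the 13 tumours that the groups did not use, a limma slope on Cdkn2a called 0 genes after adjustment. At an unadjusted p under 0.05 it gave 758 genes (4.17%), below the 5% that such a threshold gives where no gene is associated. The slope had the same sign as the difference in 244 of the 354 genes (68.9%), against 54.0% of all genes.

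**Figure D2:**
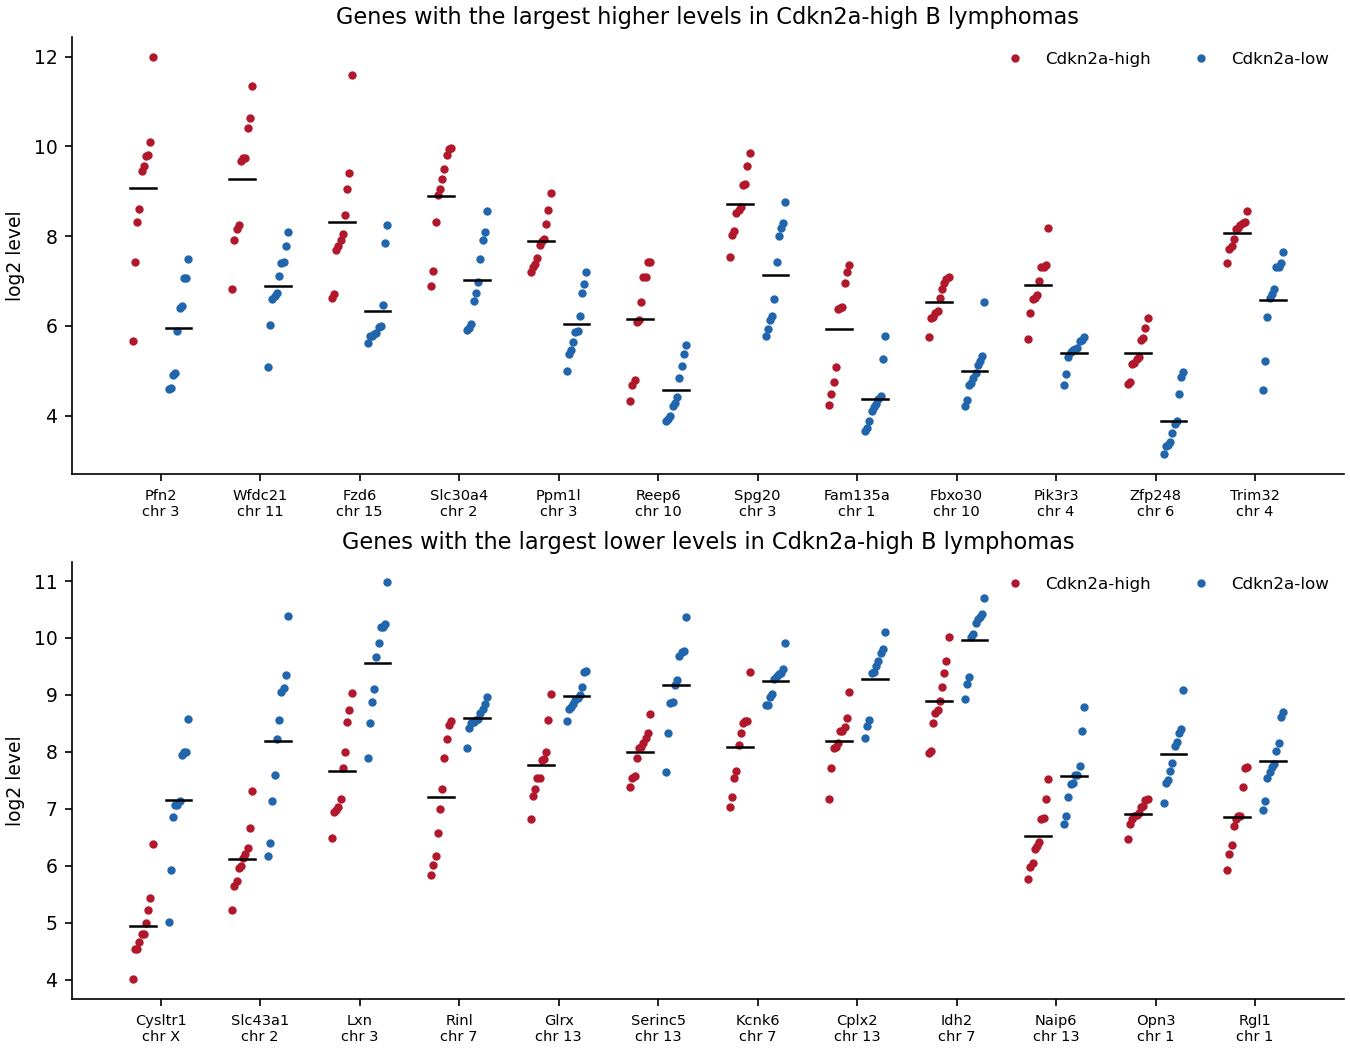
Log2 levels of the 12 genes with the largest higher (top) and the 12 with the largest lower (bottom) levels in Cdkn2a-high tumours among genes past the threshold, with 10 points per group and the group mean as a bar. Groups overlap for all 24 genes, for example in Pfn2, where the Cdkn2a-high tumour at 5.66 lies within the Cdkn2a-low range.

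The 12 genes with the largest excess in Cdkn2a-high tumours held 3 genes of chromosome 3 and 2 of chromosome 4. Pfn2, the profilin that binds actin mainly in neurons, ran from 5.66 to 12.00 (median 9.50) in Cdkn2a-high tumours and from 4.60 to 7.48 (median 6.14) in Cdkn2a-low tumours. It was higher by 3.13 ± 0.60 on the log2 scale (SE, limma adjusted p = 0.012), and 8 of 10 Cdkn2a-high tumours lay above every Cdkn2a-low tumour. The level of 5.66 was that of tumour 32. Ppm1l, a protein phosphatase gene also on chromosome 3, ran from 7.20 to 8.96 (median 7.85) in Cdkn2a-high and from 5.00 to 7.20 (median 5.88) in Cdkn2a-low tumours. The difference was 1.85 ± 0.28 (adjusted p = 0.0057), and 9 of 10 Cdkn2a-high tumours were above all Cdkn2a-low ones. Pik3r3, a regulatory subunit of phosphoinositide 3-kinase on chromosome 4, ran from 5.70 to 8.17 (median 6.84) in Cdkn2a-high and from 4.69 to 5.76 (median 5.47) in Cdkn2a-low tumours, a difference of 1.52 ± 0.23 (adjusted p = 0.0057). Here too 9 of 10 Cdkn2a-high tumours exceeded the whole Cdkn2a-low group.

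Wfdc21, a small secreted protein with a whey acidic protein domain, ran from 6.83 to 11.35 (median 9.70) in Cdkn2a-high and from 5.09 to 8.08 (median 6.92) in Cdkn2a-low tumours, and was higher by 2.38 ± 0.49 (limma adjusted p = 0.021). Fbxo30, a substrate adaptor of a ubiquitin ligase, ran from 5.75 to 7.09 (median 6.48) in Cdkn2a-high and from 4.22 to 6.53 (median 4.89) in Cdkn2a-low tumours, a difference of 1.53 ± 0.24 (adjusted p = 0.0058). Trim32, a ubiquitin ligase on chromosome 4, was higher by 1.48 ± 0.31 (adjusted p = 0.023). The Wnt receptor Fzd6 (1.99), the zinc exporter Slc30a4 (1.86), Reep6 of the endoplasmic reticulum (1.60), spartin (Spg20, 1.58, chromosome 3), Fam135a (1.56) and the zinc finger gene Zfp248 (1.50) completed the 12, with adjusted p between 0.0058 and 0.046. The probe sets of Zfp248 disagreed with each other over the arrays (lowest r -0.32), as did those of 39 of the 354 genes (r under 0.2), so its value rests on 1 of them.

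The 12 genes with the largest deficit in Cdkn2a-high tumours held 4 of chromosome 13. Cysltr1, the receptor for cysteinyl leukotrienes on the X chromosome, ran from 4.01 to 6.39 (median 4.81) in Cdkn2a-high and from 5.01 to 8.57 (median 7.10) in Cdkn2a-low tumours, and was lower by 2.22 ± 0.37 on the log2 scale (limma, -2.22, adjusted p = 0.0058). All 10 Cdkn2a-high tumours were below the Cdkn2a-low median, and 7 were below every Cdkn2a-low tumour. Slc43a1, a transporter of large neutral amino acids, ran from 5.22 to 7.31 (median 6.07) in Cdkn2a-high and from 6.17 to 10.38 (median 8.39) in Cdkn2a-low tumours (-2.08 ± 0.44, adjusted p = 0.023). Lxn, latexin, an inhibitor of carboxypeptidases, lies on chromosome 3 and ran against most of the genes called there: it ranged from 6.49 to 9.04 (median 7.44) in Cdkn2a-high and from 7.90 to 10.99 (median 9.79) in Cdkn2a-low tumours (-1.90 ± 0.38, adjusted p = 0.018).

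Of the chromosome 13 genes in this set, Glrx, the thiol enzyme glutaredoxin, ran from 6.82 to 9.02 (median 7.70) in Cdkn2a-high and from 8.55 to 9.42 (median 8.93) in Cdkn2a-low tumours (-1.20 ± 0.21, adjusted p = 0.0080). Tumours 32 (9.02) and 14 (8.56) lay inside the Cdkn2a-low range, and the other 8 Cdkn2a-high tumours lay below every Cdkn2a-low tumour. Serinc5, a membrane protein known to restrict retroviruses, differed by -1.18, Cplx2, a complexin of vesicle fusion, by -1.08, and Naip6, an inflammasome sensor, by -1.06 (adjusted p from 0.026 to 0.034). The remaining genes were Rinl (-1.38), the potassium channel Kcnk6 (-1.15), mitochondrial isocitrate dehydrogenase Idh2 (-1.07), the opsin Opn3 (-1.06) and the Ral exchange factor Rgl1 (-0.97), with adjusted p between 0.0080 and 0.046. The probe sets of Rinl disagreed (lowest r 0.14). Of these 24 genes, 11 passed the threshold in each of the 20 fits that leave out 1 tumour and 13 missed it in 1 or more, of which Trim32, Slc43a1 and Cplx2 missed it once, each without tumour 24 (highest adjusted p 0.053). The other 10 missed it in 2 to 15 of the fits, with an adjusted p of up to 0.093.

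In 20 genes (0.11% of those tested) the groups did not overlap at all, and 19 of them passed the limma threshold. They are named here for that property, after their values were seen. Sdha, the flavoprotein subunit of succinate dehydrogenase, lies on chromosome 13 and had the smallest adjusted p of all genes. It read 10.41 (tumour 12), 10.45 (17), 10.47 (24), 10.58 (3), 10.67 (25), 10.72 (14), 10.74 (15), 10.79 (10), 10.88 (9) and 10.92 (32) in Cdkn2a-high tumours. In Cdkn2a-low tumours it read 11.08 (tumour 1), 11.24 (22), 11.25 (11), 11.42 (35), 11.43 (13), 11.50 (29), 11.50 (36), 11.56 (28), 11.57 (39) and 11.57 (34). The difference was -0.75 ± 0.08 (adjusted p = 0.00016). The 13 tumours between the groups had Sdha at 11.03 to 11.56, so they too lay above all Cdkn2a-high tumours.

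Bet1, a SNARE of transport between endoplasmic reticulum and Golgi, was the only other of the 20 genes that also set the Cdkn2a-high tumours apart from the 13 between. It ran from 8.322 to 8.628 (median 8.57) in Cdkn2a-high tumours, from 7.723 to 8.193 (median 8.05) in Cdkn2a-low tumours and from 7.881 to 8.316 in the tumours between (0.48 ± 0.07 against Cdkn2a-low, limma adjusted p = 0.0057). Of the 19 genes past the threshold, 8 lay on chromosome 5. They included Lias, which makes lipoic acid (10.64 to 11.36 in Cdkn2a-high and 9.92 to 10.60 in Cdkn2a-low tumours, a difference of 0.64), and Diablo, the mitochondrial antagonist of inhibitor of apoptosis proteins (9.35 to 10.00 in Cdkn2a-high and 8.53 to 9.24 in Cdkn2a-low tumours, 0.60). The others there included Fam216a (0.78), Rab28 (0.57), Anapc4, a subunit of the anaphase-promoting complex (0.41), Polr2b, a core subunit of RNA polymerase II (0.41), and Tmed5 (0.34).

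Outside chromosome 5, the non-overlapping genes included Rasa1, a GTPase-activating protein for Ras on chromosome 13 (8.48 to 9.43 in Cdkn2a-high and 9.52 to 9.89 in Cdkn2a-low tumours, -0.63), and Vav2, a guanine nucleotide exchange factor (8.13 to 8.47 in Cdkn2a-high and 8.50 to 9.11 in Cdkn2a-low tumours, -0.49). Tnfaip8 (-0.68) and the ribosomal protein gene Rpl10a (-0.17) were also lower. Paip2b (0.81), Trmt13 on chromosome 3 (0.56), Tmem161a (0.42) and Lrrc49 (1.42) were higher in Cdkn2a-high tumours. The probe sets of Lrrc49 did not follow each other (lowest r 0.0022). The adjusted p of the 19 genes ran up to 0.022.

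Chromosomes 3, 5 and 13 were singled out with earlier results of these data known, so the values below describe them and are no independent test of that choice. All 57 genes that differed on chromosome 13 were lower in Cdkn2a-high tumours (8.12% of 702 tested). All 67 on chromosome 5 were higher (5.98% of 1121), and on chromosome 3, 38 were higher and 3 lower (4.49% of 913). These counts depended on single tumours as well. Without tumour 24, 15 genes on chromosome 13 were lower, and 26 on chromosome 5 and 9 on chromosome 3 were higher. Without tumour 32 the same counts were 99, 98 and 64, and without tumour 1 they were 112, 87 and 49. The lower count on chromosome 13 was also 30 to 37 without any 1 of tumours 10, 17, 25, 29, 34, 35 and 39. The higher count on chromosome 3 was 18 to 25 without any 1 of tumours 10, 12, 14, 15, 17, 28, 29, 34, 35 and 39. A few genes then went the other way, up to 5 lower on chromosome 5 (without tumour 1) and 1 higher on chromosome 13 (without tumour 25 or 32). The next share was chromosome 4, which carries Cdkn2a itself, with 22 higher and 0 lower (2.03% of 1086), against 1.95% over all genes. With the genes of a chromosome cut in their order into 5 stretches of like size, differing genes lay in every stretch of chromosomes 13, 5 and 3. On chromosome 13 the stretches held 6, 9, 16, 12 and 14 of them, and on chromosome 5 they held 12, 13, 15, 15 and 12. On chromosome 4 the first 4 held 7, 6, 7 and 2, and the last held 0. The 4 genes named for their size on chromosome 5 were Uvssa (1.12), Rbks (0.90), Fam216a (0.78) and Fam185a (0.76). Their limma adjusted p ran from 0.0058 to 0.017, and the probe sets of Uvssa disagreed (lowest r 0.14).

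**Figure D3:**
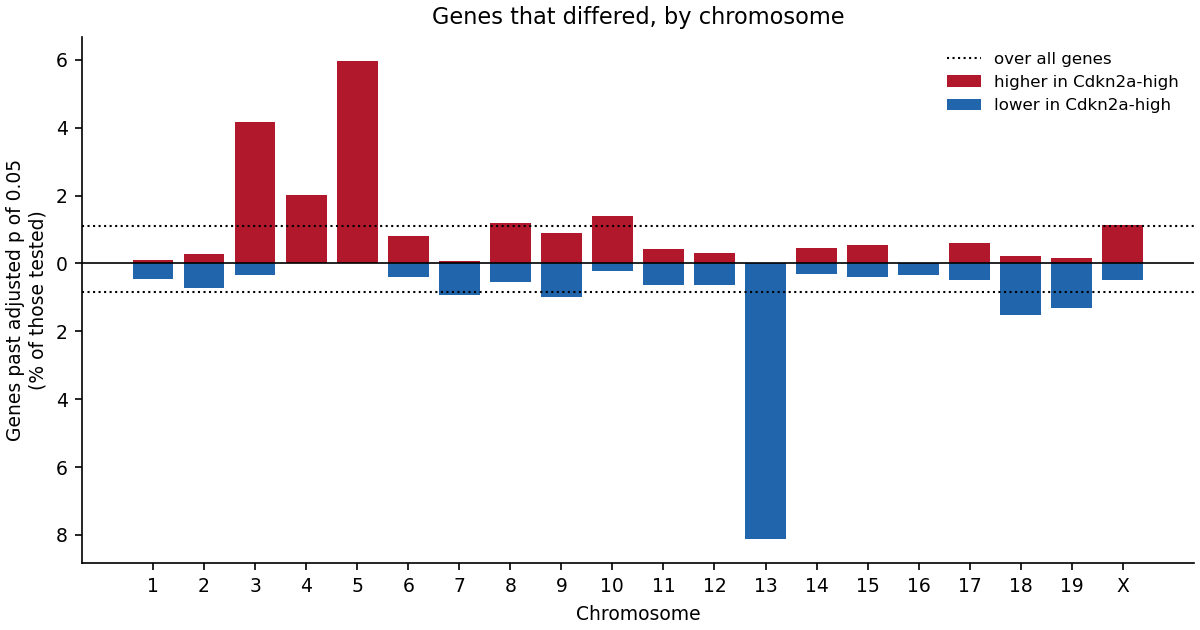
Percentage of the genes tested on each chromosome that passed the limma adjusted p of 0.05, upward bars for genes higher and downward bars for genes lower in Cdkn2a-high tumours; dotted lines give the shares over all genes, 1.11% and 0.836%. Chromosome 13 has only lower genes, and chromosome 5 only higher ones.

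The mean level of a whole chromosome was taken per tumour over its genes with a mean of 7 or more, as the mean of each gene's log2 level minus that gene's mean over the 33 B lymphomas. Of 20 chromosomes, 4 (20.0%) differed between the groups by a two-sided permutation test with Benjamini-Hochberg adjustment over the 20. Chromosome 13 averaged -0.234 ± 0.250 in Cdkn2a-high and 0.116 ± 0.094 in Cdkn2a-low tumours (SD, n = 10 each), a difference of -0.350 ± 0.084 (SE, adjusted p = 0.0057). Chromosome 5 averaged 0.123 ± 0.114 in Cdkn2a-high and -0.081 ± 0.106 in Cdkn2a-low tumours, a difference of 0.204 ± 0.049 (adjusted p = 0.0057). Chromosome 3 averaged 0.157 ± 0.120 in Cdkn2a-high and -0.072 ± 0.162 in Cdkn2a-low tumours, a difference of 0.229 ± 0.064 (adjusted p = 0.021). Chromosome X differed by 0.159 ± 0.054 (adjusted p = 0.024), and chromosome 4 by 0.088 ± 0.050 (adjusted p = 0.39). Of the chromosome X genes tested singly, 1.62% were called by limma, against 1.95% over all genes.

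On chromosome 13, 7 of the 10 Cdkn2a-high tumours had means of -0.632 (tumour 17), -0.506 (24), -0.383 (3), -0.349 (25), -0.294 (10), -0.253 (15) and -0.134 (12), each below all Cdkn2a-low tumours and all 13 tumours between. Tumours 9, 14 and 32 had 0.068, 0.095 and 0.049, inside the Cdkn2a-low range but below its median. In Cdkn2a-low tumours the chromosome 13 mean ran from -0.111 (tumour 1) to 0.202 (tumour 28), with a median of 0.140, and in the tumours between from -0.051 to 0.230. The next lowest Cdkn2a-low mean after tumour 1 was 0.054 (tumour 11), so without tumour 1 tumour 32 too lay below that group. The lower level was broad, as only 8.89% of the genes averaged there were higher in Cdkn2a-high tumours. Sdha was below every Cdkn2a-low tumour in tumours 9, 14 and 32 as well, but its choice as a gene without overlap fixes that.

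On chromosome 5, the Cdkn2a-high tumours had means of 0.314 (tumour 14), 0.232 (32), 0.175 (24), 0.166 (12), 0.140 (10), 0.120 (25), 0.115 (17), 0.072 (3), -0.025 (9) and -0.076 (15), while Cdkn2a-low tumours ran from -0.346 (tumour 1) to 0.038 (tumour 28). Thus 8 of 10 Cdkn2a-high tumours exceeded every Cdkn2a-low tumour, and 82.8% of the genes averaged were higher. Tumour 21, between the groups with the highest chromosome 5 mean of all (0.480), had a Cdkn2a level outside the upper group. On chromosome 3 the Cdkn2a-high tumours had 0.326 (tumour 15), 0.270 (14), 0.260 (24), 0.212 (12), 0.206 (9), 0.175 (32), 0.089 (25), 0.044 (10), 0.012 (3) and -0.028 (17). Cdkn2a-low tumours had a chromosome 3 median of -0.136, but tumours 22 (0.274) and 11 (0.147) were raised, so the groups overlapped, with 1 Cdkn2a-high tumour above all Cdkn2a-low ones. No single chromosome mean was shifted in all 10 Cdkn2a-high tumours beyond the Cdkn2a-low range.

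**Figure D4:**
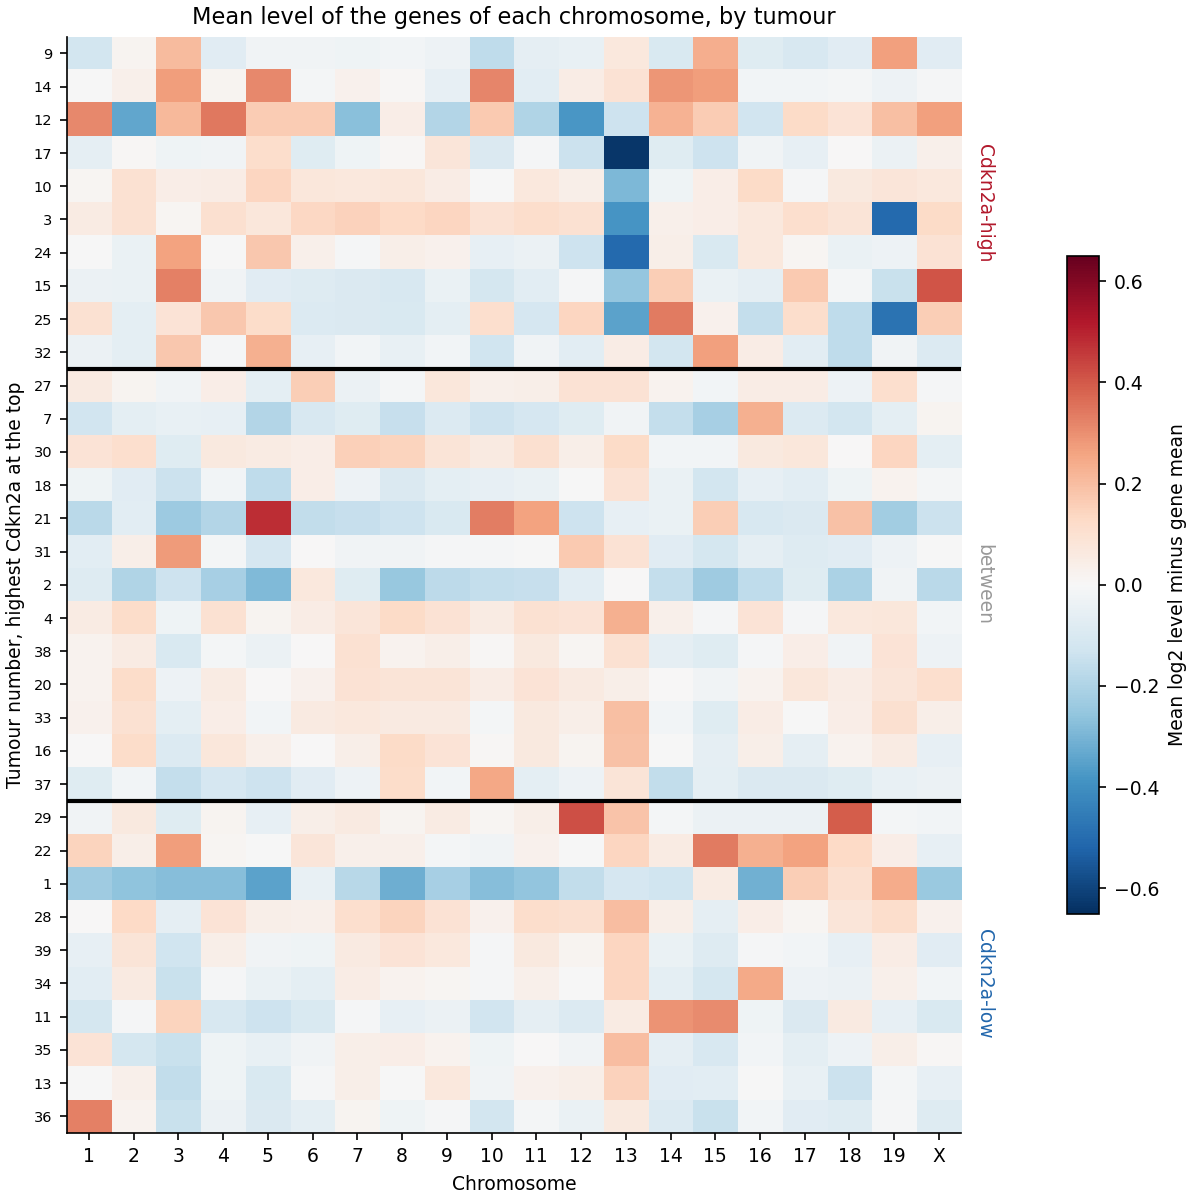
Mean log2 level of each chromosome's genes relative to the gene means, in colour, for the 33 B lymphomas (rows, highest Cdkn2a at the top; black lines part the groups) and chromosomes 1 to 19 and X (columns). Chromosome 13 is blue in 7 Cdkn2a-high tumours (down to -0.632 in tumour 17), and tumour 1, in the Cdkn2a-low group, is low on most chromosomes.

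Tumour 1 was low on most chromosomes, and the chromosome X difference is not given without it. The means of chromosomes 3, 5 and 13 were also compared without that tumour. Chromosome 3 then differed by 0.206 and chromosome 5 by 0.174, the smallest values among the 20 fits that leave out 1 tumour, and all 20 kept an adjusted p of at most 0.044 for chromosomes 3, 5 and 13. The share of tumours with high Xist differed between the groups. With high Xist, chromosome X averaged 0.115 in Cdkn2a-high and -0.096 in Cdkn2a-low tumours, and with low Xist 0.061 and -0.037. How much of the chromosome X difference goes with Xist was not tested. Within the tumours with high Xist (7 Cdkn2a-high and 4 Cdkn2a-low), chromosome 13 differed by -0.292, chromosome 5 by 0.271 and chromosome 3 by 0.145 (exact permutation test, adjusted p = 0.32, 0.24 and 0.71). Within those with low Xist (3 and 6 tumours) the differences were -0.408, 0.136 and 0.305 (exact permutation test, adjusted p = 0.095, 0.12 and 0.060). The direction was the same in both sets, and none passed the threshold at these group sizes.

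None of the 14 measured genes of the Cdkn2a region on chromosome 4 passed the limma threshold (2 at an unadjusted p under 0.05). Cdkn2b, which encodes the neighbouring inhibitor p15Ink4b, ran from 5.36 to 6.44 (median 5.86) in Cdkn2a-high and from 5.22 to 6.51 (median 5.49) in Cdkn2a-low tumours (0.29 ± 0.15, limma adjusted p = 0.35). Mtap, the methylthioadenosine phosphorylase gene on the other side, ran from 9.80 to 11.00 (median 10.41) in Cdkn2a-high and from 6.48 to 10.83 (median 10.64) in Cdkn2a-low tumours (0.49 ± 0.48, adjusted p = 0.66). Its level was low in Cdkn2a-low tumours 13 (6.48) and 1 (7.25) and at 10.08 or more in the other 8. The next lowest Mtap level of the 33 was 7.89 in tumour 7, between the groups, whose Cdkn2a was at 9.30. The median difference over the 14 genes was 0.23, against -0.026 over all genes.

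Known regulators of the locus, the polycomb proteins and factors that bind it, gave 0 calls in 28 measured genes (7 at an unadjusted p under 0.05, against 15.7% of all genes), with a median difference of 0.013. Bmi1, the polycomb repressor whose loss induces Cdkn2a in mice, ran from 9.34 to 10.77 (median 9.93) in Cdkn2a-high and from 8.67 to 12.21 (median 9.80) in Cdkn2a-low tumours (0.04 ± 0.33, limma adjusted p = 0.97). Ezh2, the polycomb methyltransferase, ran from 10.53 to 11.51 (median 11.28) in Cdkn2a-high and from 10.37 to 11.67 (median 11.39) in Cdkn2a-low tumours (-0.11 ± 0.15, adjusted p = 0.77). The largest differences in the list were those of Egr1 (1.38, adjusted p = 0.14), an early response factor, and the polycomb reader Cbx7 (0.59, adjusted p = 0.12).

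Of 36 measured p53 target and feedback genes, 3 were lower in Cdkn2a-high tumours (0.836% of all genes were lower) and 0 higher, and the median difference was -0.045. At an unadjusted limma p under 0.05 there were 11 of the 36, against 15.7% of all genes. Ccng1, cyclin G1, a direct p53 target, ran from 9.50 to 9.99 (median 9.67) in Cdkn2a-high and from 9.89 to 11.24 (median 10.19) in Cdkn2a-low tumours (-0.54 ± 0.13, limma adjusted p = 0.038). All 10 Cdkn2a-high tumours lay below the Cdkn2a-low median, and the tumours between, at 10.08 to 11.05, all lay above the Cdkn2a-high group. Mdm4, an inhibitor of p53, ran from 9.01 to 10.01 (median 9.65) in Cdkn2a-high and from 9.70 to 11.05 (median 10.12) in Cdkn2a-low tumours (-0.55 ± 0.14, adjusted p = 0.043), and its probe sets disagreed (lowest r 0.0046). Polk, a translesion DNA polymerase on chromosome 13, ran from 6.68 to 7.83 (median 7.34) in Cdkn2a-high and from 7.62 to 8.30 (median 7.92) in Cdkn2a-low tumours (-0.64 ± 0.13, adjusted p = 0.017). Ccng1 and Mdm4 missed the threshold in 13 and 14 of the 20 fits that leave out 1 tumour (adjusted p up to 0.069 and 0.082), and Polk in 0. In another alternative setting Polk did miss it (limma adjusted p = 0.069).

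The other p53 targets did not pass. Cdkn1a, which encodes the cell cycle inhibitor p21, ran from 6.93 to 8.28 (median 7.46) in Cdkn2a-high and from 7.05 to 8.42 (median 7.64) in Cdkn2a-low tumours (-0.20 ± 0.19, limma adjusted p = 0.65). Mdm2 ran from 8.75 to 9.31 (median 9.08) in Cdkn2a-high and from 8.68 to 9.44 (median 9.12) in Cdkn2a-low tumours (-0.06 ± 0.09, adjusted p = 0.82), and its probe sets disagreed as well (lowest r 0.096). Both genes reached their highest levels in tumours between the groups, Cdkn1a up to 9.86 and Mdm2 up to 9.91. The largest positive differences were those of Plk2 (0.89, adjusted p = 0.25) and Perp (0.77, adjusted p = 0.60).

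**Figure D5:**
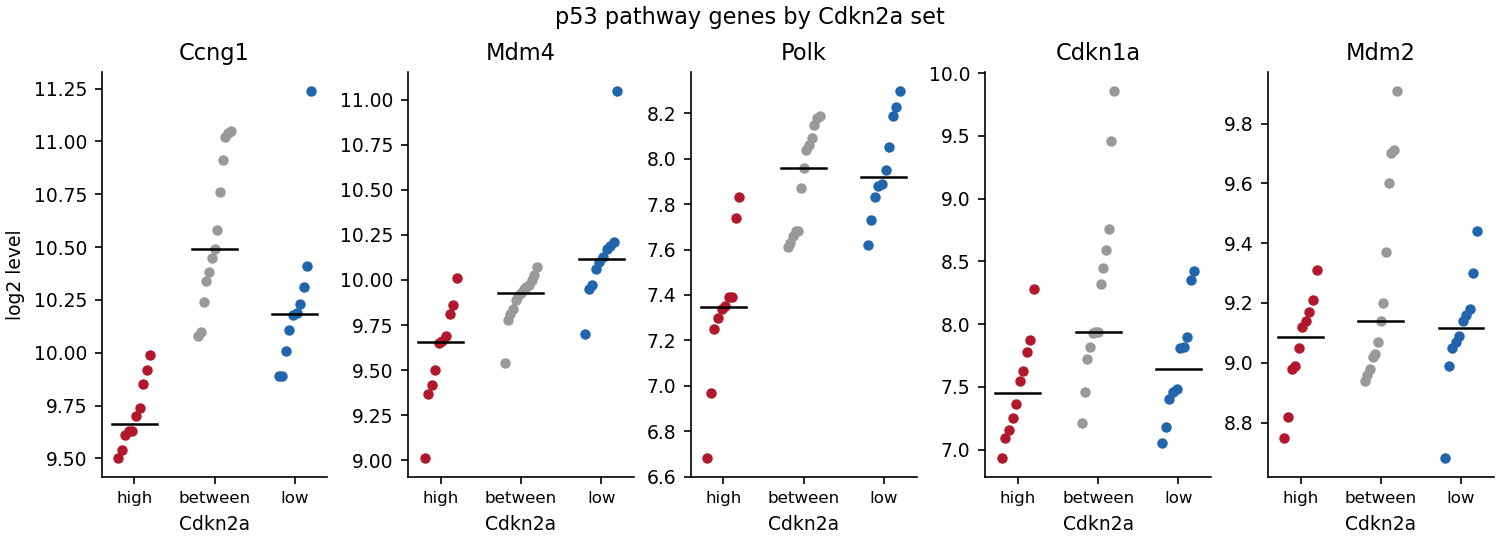
Log2 levels of 5 p53 pathway genes by tumour in Cdkn2a-high (n = 10), between (n = 13) and Cdkn2a-low (n = 10) B lymphomas, with the median as a bar. Ccng1 lies at 9.50 to 9.99 in Cdkn2a-high tumours, below all tumours between, while Cdkn1a and Mdm2 overlap across the sets.

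The branch that runs through p16Ink4a showed 0 calls in 13 Rb and E2F family genes (5 at an unadjusted p under 0.05, against 15.7% of all genes, median difference -0.12) and 0 in 14 G1 cyclins, kinases and inhibitors (2 unadjusted, median -0.037). E2f1 ran from 7.73 to 8.39 (median 8.07) in Cdkn2a-high and from 7.32 to 8.72 (median 8.45) in Cdkn2a-low tumours (-0.36 ± 0.15, limma adjusted p = 0.23). Cdk4 ran from 10.89 to 11.68 (median 11.11) in Cdkn2a-high and from 10.56 to 11.66 (median 11.35) in Cdkn2a-low tumours (-0.05 ± 0.13, adjusted p = 0.90). Cdk6, on chromosome 5, ran from 9.89 to 10.78 (median 10.41) in Cdkn2a-high and from 5.79 to 10.39 (median 9.71) in Cdkn2a-low tumours (0.93 ± 0.40, adjusted p = 0.27). Replication genes (0 of 23, 7 unadjusted, median -0.19) and G2 and mitosis genes (0 of 24, 0 unadjusted, median -0.050) were not called either, and the largest difference among them was that of thymidylate synthase, Tyms (-0.93, adjusted p = 0.065).

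In the Myc network, 1 of 13 genes passed and was higher (2 at an unadjusted limma p under 0.05, median difference -0.013). Of all genes 1.11% were called higher, and of those on chromosome 5, where this gene lies, 5.98%. Mlxip, which encodes the Mlx partner MondoA on chromosome 5, ran from 9.12 to 10.34 (median 9.91) in Cdkn2a-high and from 8.81 to 9.90 (median 9.30) in Cdkn2a-low tumours (0.56 ± 0.15, limma adjusted p = 0.0499). It missed the threshold in 16 of the 20 fits that leave out 1 tumour (adjusted p up to 0.099). None of 24 ribosome biogenesis and other Myc target genes (5 at an unadjusted p under 0.05, median 0.099), 18 DNA damage genes (1 unadjusted, median -0.054), 16 Bcl2 family genes (4, median -0.095) or 14 genes known to be hit in Myc lymphomas (1, median 0.046) passed in limma.

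By limma, 0 of 19 precursor B cell genes (0 at an unadjusted p under 0.05, median -0.034), 0 of 19 mature B cell genes (2 unadjusted, median 0.23), 0 of 10 germinal centre genes (1, median -0.016) and 0 of 10 MHC class II genes (1, median 0.31) passed. Of 14 pan-B genes 1 was lower, where 0.836% of all genes and 8.12% of those on chromosome 13 were lower. Syk, the kinase that relays the B cell receptor, lies on chromosome 13 and ran from 9.42 to 10.44 (median 9.91) in Cdkn2a-high and from 10.36 to 12.12 (median 10.81) in Cdkn2a-low tumours (-0.93 ± 0.19, limma adjusted p = 0.019). It was below all Cdkn2a-low tumours in 9 of 10 Cdkn2a-high tumours. Of 11 plasma cell genes 1 was lower, against the same 0.836%. It was Mzb1, a chaperone of immunoglobulin, at 11.08 to 12.84 (median 12.23) in Cdkn2a-high and 12.20 to 13.33 (median 12.86) in Cdkn2a-low tumours (-0.78 ± 0.19, adjusted p = 0.040). Mzb1 missed the threshold in 14 of the 20 fits that leave out 1 tumour (limma adjusted p up to 0.0705).

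Markers of other cells in the tissue gave 1 call in all, where 1.95% of all genes were called. Of 14 dendritic cell genes, the lectin gene Cd209a was lower in Cdkn2a-high tumours, at 4.80 to 5.83 (median 4.97), against 5.24 to 6.10 (median 5.59) in Cdkn2a-low tumours (-0.50 ± 0.13, limma adjusted p = 0.042). Cd209a missed the threshold in 16 of the 20 fits that leave out 1 tumour (limma adjusted p up to 0.078). Yet 8 of the 14 dendritic cell genes were higher, with differences up to 2.08 and a median of 0.058. At an unadjusted limma p under 0.05 there were 2 of them. None of 18 T cell (median -0.25), 15 cytotoxic and NK cell (-0.34), 21 macrophage (-0.014), 14 neutrophil (-0.18), 8 erythroid (-0.064), 14 fibroblast (-0.14), 13 endothelial (-0.23), 9 adipocyte (-0.11) or 12 salivary gland genes (0.70) passed, nor did any of 19 interferon (-0.044), 16 NF-kB (0.085) or 4 sex-linked genes (-1.04). At an unadjusted p under 0.05 there were 4 NF-kB, 3 endothelial, 2 macrophage, 2 erythroid and 1 cytotoxic gene, and 0 in the other lists of that sentence. As the mean of level minus gene mean, the T cell list ran from -1.26 to 1.67 (median -0.65) in Cdkn2a-high and from -0.81 to 0.97 (median -0.17) in Cdkn2a-low tumours. The macrophage list ran from -0.86 to 0.66 (median 0.19) in Cdkn2a-high and from -0.55 to 0.94 (median -0.29) in Cdkn2a-low tumours, and the fibroblast list from -0.80 to 0.74 (median -0.25) in Cdkn2a-high and from -1.01 to 1.03 (median -0.044) in Cdkn2a-low tumours. With the T cell, macrophage and fibroblast means as covariates, 175 genes passed, against 354 in the main fit. Of these, 43 on chromosome 5 were higher (67 in the main fit) and 29 on chromosome 13 lower (57). On chromosome 3, 18 were higher and 1 lower (38 and 3 in the main fit). The part of other cells in the single differences was not tested beyond this fit.

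The 13 B lymphomas between the groups, which the contrast did not use, lay nearer to the Cdkn2a-low tumours for most of the genes called. The mean of those 13 was nearer to the Cdkn2a-low mean for 173 of the 202 higher genes and for 124 of the 152 lower genes. By chromosome this held for 52 of 57 genes on chromosome 13, 59 of 67 on chromosome 5 and 37 of 41 on chromosome 3. The same share over all genes was not taken, so these counts have no background and do not set the called genes apart. Their Cdkn2a levels, 7.10 to 9.69 with a median of 7.49, were also nearer to those of the Cdkn2a-low group.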

How the data were processed

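The deposited table holds log2 expression values per probe set for 39 arrays. The submitters' processing notes name RMA and affy as the authors' tools. This method subtracts background, quantile normalizes the arrays together and combines the probes of a set. Versions, and any filter on dim probe sets, are not stated in the labels or notes. Quantile normalization hides a change in total RNA, and dim genes are compressed. The number of arrays limits the precision. Values of 1.95 to 14.84 fit a log2 scale.

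Of 45101 probe sets, 34958 named 1 gene in the platform annotation, 932 named several and 9211 were not listed and are unnamed here. Each of 18194 genes took its 1-gene probe set with the highest mean over the 39 arrays (Entrez identifiers of 34754 probe sets matched a gene table of assembly GRCm38.p6, used for chromosomes and gene order). Cdkn2a and Pou2af1, which chose the tumours, were not tested. Groups were compared with limma 3.58.1 in R 4.3.3 (lmFit, eBayes with trend), two-sided, with Benjamini-Hochberg adjustment over 18192 genes at 0.05. Chromosome means were compared by permutation (100000 draws, or all regroupings where a group was under 10). On simulated data with these group sizes and independent noise for each gene, limma recovered 46.3% of genes changed by 0.5, 88.1% by 1 and 97.0% by 2 (log2). Genes that move together by chromosome or tumour, as here, were not simulated, so these rates may not hold for these data.

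Members and the 31 gene lists (497 of 545 entries measured) were chosen with earlier results of these data known. Named genes are the 12 called genes with the largest difference each way, the 4 on chromosomes 3, 5 and 13, and list members; predicted genes were passed over. This named 35 called genes, and 16 more were named because the groups did not overlap, after their values were seen. Alternatives covered the gene value, a filter on dim genes, scaling, group size, the Pou2af1 and Myc minimum, slopes on Cdkn2a, covariates, the eBayes trend and leaving out each tumour. Alternatives without tumours 1, 22 and 32, within Xist classes and relative to the tumour's mean over chromosomes were chosen after seeing the data. Scripts ran in Python 3.11.15.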

Additional observations from a re-analysis of the deposited data

Results flagged for a closer look

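In 14 of 110 combinations of a group and a gene or chromosome mean, the highest or lowest tumour lay far from the nearest other tumour of its group for a group of 10, and chance alone would flag about 1 in 20. In Cdkn2a-high tumours these were Rbks in tumour 32 (7.877, next 8.608), Cd209a in tumour 32 (5.828, next 5.274), Tnfaip8 in tumour 9 (9.852, next 10.40) and Rpl10a in tumour 10 (13.69, next 13.86). In Cdkn2a-low tumours tumour 1 was flagged most often, for Fam216a (7.686, next 8.318), Ccng1 (11.24, next 10.41), Polr2b (11.16, next 11.55) and the means of chromosomes 5 (-0.346, next -0.134), 13 (-0.111, next 0.054) and X (-0.239, next -0.100). The other Cdkn2a-low values were Fbxo30 in tumour 29 (6.528, next 5.334), Mdm4 in tumour 36 (11.05, next 10.21), Bet1 in tumour 11 (7.723, next 7.985) and Rasa1 in tumour 39 (9.890, next 9.696). Without tumour 1, 666 genes passed the limma threshold in place of 354, and Ccng1 and Polr2b still did.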

How the results depend on the processing

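No paired analysis was possible because the labels give a single group and no shared replicate numbers. Of the 354 genes called (202 higher, 152 lower), the count became 127 (63 higher, 64 lower) with each array centred on its median. It was 742 (433 and 309) with 7 tumours against 7, and 154 (71 and 83) with 13 against 13. With T cell, macrophage and fibroblast scores as covariates it was 175 (107 and 68). The precursor minus mature B cell score as covariate gave 333 higher genes, and leaving out tumours 1, 22 and 32 gave 1160 (614 and 546). The limma slope over the 13 tumours between gave 0 (0 and 0), with fewer tumours and a narrower range of Cdkn2a. Leaving out 1 tumour gave 100 (without tumour 24) to 735 (without tumour 32) in all, 62 to 439 higher and 38 to 356 lower. The causes were not tested. The mean over probe sets, the filter on dim genes, the slope over all B lymphomas, the Xist class or 3' minus 5' covariate and eBayes without trend kept the total within 1.5 times. The filter on dim genes called 491 of only 9095 genes tested, in place of 354 of 18192, so its share called was larger. A Pou2af1 minimum of 10 and a Myc minimum of 10 removed no tumour from either group. These fits therefore repeat the main one (354) and are no check of it.

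Chromosome 3 lost its call with 7 against 7 (0.230, adjusted p = 0.051), over all genes of the chromosome (0.106, adjusted p = 0.074), and among tumours with high Xist (0.145) or low Xist (0.305). Chromosomes 5 (0.271 and 0.136) and 13 (-0.292 and -0.408) lost it only within the same Xist classes, where exact permutation of fewer tumours was used. Other settings, including arrays centred and values relative to the tumour's mean over chromosomes, kept the direction and the call of all 3. Leaving out 1 tumour gave 0.206 to 0.267 for chromosome 3, 0.1745 to 0.226 for chromosome 5 and -0.386 to -0.306 for chromosome 13.

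Of the 35 called genes named by size, chromosome or list, 17 kept the threshold in all 20 fits that leave out 1 tumour. The 16 named because the groups did not overlap kept it too, which that choice nearly fixes. Over the 13 tumours between, 18 of these 51 had a slope of the opposite sign, in log2 per log2 unit of Cdkn2a. For genes higher in Cdkn2a-high tumours these were Wfdc21 -0.26, Ppm1l -0.29, Spg20 -0.070, Fbxo30 -0.14, Trim32 -0.19, Bet1 -0.064, Rab28 -0.10, Diablo -0.012, Polr2b -0.015 and Tmed5 -0.079. For genes lower in them they were Slc43a1 0.17, Rinl 0.15, Mdm4 0.010, Ccng1 0.033, Syk 0.057, Vav2 0.011, Tnfaip8 0.085 and Rpl10a 0.012. The other alternatives, leave-one-out included, kept the sign of each of the 51 that they tested. The limma threshold was missed by 27 of the 51 with 13 against 13, and by 20 with the T cell, macrophage and fibroblast scores. It was missed by 15 with arrays centred and by 10 with the Xist class as covariate. The mean over probe sets and the slope over all B lymphomas each lost 8, and 7 against 7 lost 5. Levels near the background are compressed, which limits dim genes such as Lrrc49 and Cd209a. The control difference between 3' and 5' probe sets ran from -0.00078 to 0.395 in Cdkn2a-high and from 0.061 to 0.207 in Cdkn2a-low tumours. The mean of the poly-A control probe sets ran from 8.74 to 9.36 in Cdkn2a-high tumours. In Cdkn2a-low tumours it ran from 6.70 to 9.53 with a median of 9.20, so the lowest array lay far below its group. No fit used the poly-A controls as a covariate.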

Other observations

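Tumours 3 and 25, both Cdkn2a-high, had the lowest chromosome 19 means of the 33 B lymphomas (-0.504 and -0.482).

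The 6 measured genes named Pik3r and a number encode regulatory subunits of phosphoinositide 3-kinases and are given here after their values were seen. Of them, 1 was higher, 1 lower and 4 not called, where 1.11% of all genes were higher and 0.836% lower. On chromosome 13, 8.12% of the genes tested were called, all of them lower. Pik3r3 was higher by 1.52 ± 0.23 and Pik3r1, on chromosome 13, lower (-0.66 ± 0.14, SE, log2 scale, limma adjusted p = 0.0057 and 0.023). The other 4 had differences of -0.42 to -0.13. Uqcrfs1, the Rieske iron-sulfur subunit of respiratory complex III, also on chromosome 13 and also chosen after its value was seen, was lower (-0.62, adjusted p = 0.0060).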
